A study of Oryctolagus cuniculus with 9 samples.

Results

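The unfolded protein response genes described here were taken by symbol from the deposited gene tables of an mRNA sequencing study of HA-VSMC cells. The symbols sought were EIF2AK3, ERN1, ATF6, XBP1, HSPA5, DNAJB9, HERPUD1, SDF2L1, EDEM1 and DDIT3, and 9 of these 10 were matched. XBP1 was not matched by symbol and was not analysed here. All 9 had enough counts to be tested, among 12324 genes tested of 19291 in the table. No measured value entered the choice of symbols, although results of these data were known when it was made.

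HA-VSMC is a cultured cell line whose labels give the rabbit as organism, and its genes without a symbol carry rabbit Ensembl identifiers. The study exposed it to β-estradiol, the main ovarian estrogen, in a question about adenomyosis, the growth of endometrial tissue inside the uterine muscle. There were 3 groups of 3 libraries: control, 50 nM and 250 nM. All were grown in RPMI1640 with fetal bovine serum. A 48 h incubation is described with a single concentration, 250 nM, and estradiol had been dissolved in DMSO with sodium hydrogen carbonate. Whether control cells received that vehicle is not stated, and the control libraries carry "estrogen" as their treatment and "WT" as their concentration. The kit named for these mRNA libraries is a small RNA kit. Nothing in the labels says that replicates came from separate cultures: the p-values then rest on the spread among these libraries alone, which may be technical.

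The unfolded protein response watches the folding of secreted and membrane proteins in the endoplasmic reticulum (ER). Its sensors span the ER membrane: PERK (EIF2AK3) phosphorylates eIF2α and slows translation, IRE1α (ERN1) splices the XBP1 mRNA, and ATF6 travels to the Golgi, where proteases release its transcription factor domain. Together they raise chaperones such as BiP (HSPA5), cochaperones such as ERdj4 (DNAJB9), and the machinery that sends misfolded proteins to the proteasome, while prolonged PERK signalling induces the transcription factor CHOP (DDIT3). Cells that secrete much collagen, among them smooth muscle cells and fibroblasts, depend on this machinery. Transcript levels do not report PERK phosphorylation, XBP1 splicing or ATF6 cleavage, which are the steps by which the sensors signal.

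Libraries held 54718407 to 72274464 count units, which correspond to about 13679602 to 18068616 fragments because roughly 4 units stood for 1 fragment. Libraries of the same group differed by more than sampling noise (chi-square per degree of freedom 3.08 to 11.6), so none was merged. Of the smooth muscle markers, ACTA2 stood at 3013 ± 89.3 CPM (counts scaled to library size with TMM factors; mean ± SD, n = 3) and MYH11 at 28.1 ± 2.63 CPM in the control, while DES was at 0 in all 9 libraries. Other smooth muscle markers in the control were CALD1 at 1720, SMTN at 203 and SYNPO2 at 31.4 CPM. MYLK, LMOD1, MYOCD and ACTG2 were low there, at 3.77, 2.15, 1.39 and 0.39 CPM. Of 12 smooth muscle symbols 10 were matched. Their sum ran from 4903 to 5054 CPM in the control, 4983 to 5344 at 50 nM and 4933 to 5170 at 250 nM. Summed endothelial markers reached at most 3.32 CPM and epithelial ones 5.70 CPM, with KDR, EPCAM and ESRP1 at 0. The leukocyte list (194 to 221 CPM) consisted almost entirely of LCP1, with ITGAM, ITGAX and TYROBP at 0. Summed fibroblast markers, mostly collagens, ran from 30653 to 31433 CPM in the control, from 33890 to 36578 CPM at 50 nM and from 34530 to 35521 CPM at 250 nM. PDGFRA was low, with means of 2.23, 2.18 and 2.35 CPM in the same order, as was THY1 (1.96, 2.14 and 2.08). DCN had 206, 217 and 214 CPM, LUM 26.7, 26.5 and 26.1, and FAP 56.0, 63.7 and 60.1. The part of fibroblast markers in the differences below was not tested. In bulk RNA fewer cells of a type and less RNA per cell cannot be told apart.

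In the control cells HSPA5 and EDEM1 stood above the 3 sensor genes, while the other targets lay in the sensors' range or near it. Levels of different genes were compared on the authors' deposited FPKM scale, which corrects for length (mean ± SD, n = 3). HSPA5 stood highest at 562 ± 20.9 FPKM, followed by EDEM1, which acts in the degradation of misfolded glycoproteins, at 75.5 ± 3.16 FPKM. HERPUD1 at 26.2 ± 0.30 FPKM and ATF6 at 24.8 ± 3.07 FPKM came next, and their libraries overlapped. DDIT3 had 18.3 ± 2.58 FPKM and DNAJB9 13.1 ± 1.17 FPKM. At the low end, SDF2L1 at 9.49 ± 1.08 FPKM and EIF2AK3 at 8.19 ± 0.77 FPKM overlapped, and ERN1 was lowest at 4.20 ± 0.39 FPKM. Every other neighbouring pair in this order was separated in the control libraries. The FPKM values imply lengths that run from 0.76 kb for DDIT3 to 4.94 kb for EDEM1, with 3.42 kb for SDF2L1. An order between genes therefore rests on the gene models used, and the sources used here do not name them.

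**Figure D1:**
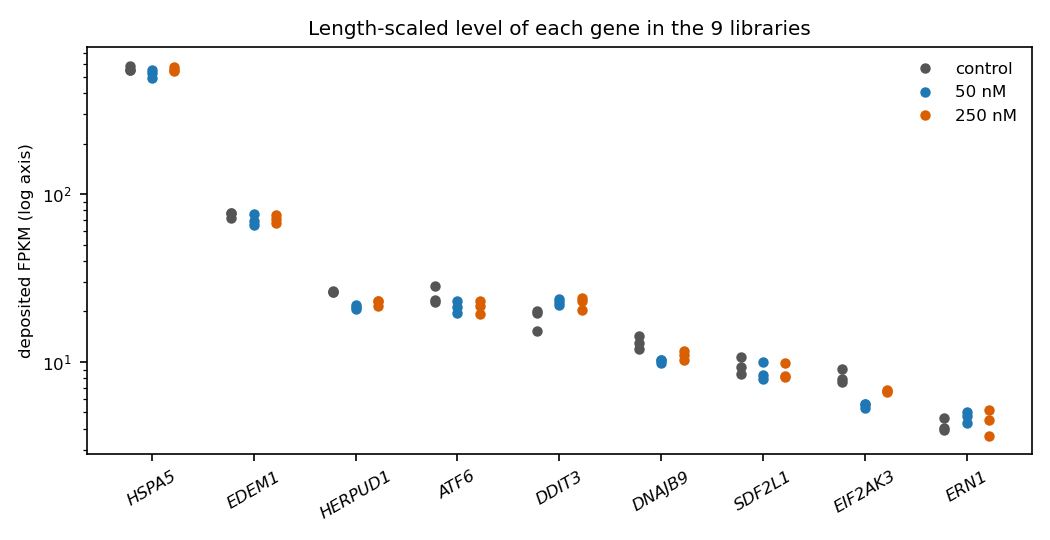
Deposited FPKM (logarithmic axis) of the 9 genes, sorted by their control mean, with each point 1 library and colours for control, 50 nM and 250 nM. HSPA5 lies far above the others and ERN1 lowest, while DDIT3 is above HERPUD1 and ATF6 by mean at 50 nM and below both in the control.

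The order changed in the middle of the scale under estradiol. DDIT3, below HERPUD1 and ATF6 in the control, had the third highest mean at 50 nM (22.7 ± 0.96 FPKM), where HERPUD1 and ATF6 each averaged 21.3 FPKM. Libraries of DDIT3 overlapped there with those of ATF6 and, narrowly, with those of HERPUD1 (lowest DDIT3 21.73, highest HERPUD1 21.82 FPKM). Those of ATF6 and HERPUD1 overlapped as well. At 250 nM HERPUD1, DDIT3 and ATF6 overlapped with their neighbours (22.6, 22.5 and 21.4 FPKM). EIF2AK3 no longer overlapped with SDF2L1 at either concentration.

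EIF2AK3, which encodes PERK, was lower at 50 nM estradiol and was the sensor that passed the test. Its control libraries had 29.8, 36.0 and 30.9 CPM for replicates 1, 2 and 3. At 50 nM they had 21.5, 23.3 and 22.5 CPM, and at 250 nM 26.8, 26.9 and 27.6 CPM. All 3 groups were separated from each other, with the 250 nM libraries lying between the others. Relative to the control, EIF2AK3 fell by 30.3% at 50 nM (log2 fold change -0.52 ± 0.08 SE, 95% interval -0.69 to -0.35, edgeR adjusted p = 0.0014). Without control replicate 2, its highest library, the change was -0.43 (edgeR adjusted p = 0.00477). Leaving out any of the 6 libraries compared kept the call, at adjusted p-values of 0.0018 to 0.013. At 250 nM the difference from the control was -0.25 ± 0.08 (edgeR adjusted p = 0.296), which did not pass.

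The gene for IRE1α gave estimates of the opposite sign. ERN1 had 12.4, 14.6 and 12.2 CPM in the control, 15.2, 16.5 and 13.8 CPM at 50 nM, and 16.4, 11.7 and 14.4 CPM at 250 nM. All 3 groups overlapped, and the 250 nM libraries alone spanned nearly the whole range. The log2 fold changes were 0.22 ± 0.12 at 50 nM (95% interval -0.04 to 0.47, edgeR adjusted p = 0.421) and 0.12 ± 0.12 at 250 nM (-0.13 to 0.38, edgeR adjusted p = 0.862). ERN1 was also the least deeply measured of the 9 genes, at 168 to 262 fragments per library. Counting error alone amounts to a coefficient of variation of 7.72% in its shallowest library.

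ATF6, the sensor released by Golgi proteases, did not pass either. Its values were 48.0, 59.2 and 46.8 CPM in the control, 49.0, 46.2 and 41.7 CPM at 50 nM, and 40.7, 49.7 and 45.9 CPM at 250 nM. Control replicate 2 was the highest of all 9 libraries and the groups overlapped. The log2 fold change was -0.17 ± 0.10 at 50 nM (95% interval -0.37 to 0.04, edgeR adjusted p = 0.443) and -0.18 ± 0.10 at 250 nM (-0.38 to 0.03, edgeR adjusted p = 0.659).

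HSPA5 encodes BiP, the Hsp70 chaperone of the ER that holds the sensors inactive and is the standard readout of this response. Its libraries had 1296, 1330 and 1390 CPM in the control, 1304, 1238 and 1339 CPM at 50 nM, and 1391, 1339 and 1344 CPM at 250 nM. Treated and control libraries overlapped at both concentrations, although the lowest library at 250 nM lay marginally above the highest at 50 nM. With 18008 to 24080 fragments per library it was the most deeply measured of the genes. Its log2 fold change was -0.05 ± 0.05 at 50 nM (95% interval -0.15 to 0.06, edgeR adjusted p = 0.723) and 0.02 ± 0.05 at 250 nM (-0.08 to 0.13, edgeR adjusted p = 0.964). These intervals, which are not adjusted for the number of genes, are narrower than those of the other 8 genes.

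SDF2L1, a partner of ER cochaperones that is induced with BiP, did not pass either. It had 35.4, 28.7 and 31.2 CPM in the control, 28.9, 27.9 and 34.6 CPM at 50 nM, and 33.5, 28.3 and 28.3 CPM at 250 nM. Control replicate 1 was the highest library and 50 nM replicate 2 the lowest, and all groups overlapped. Its log2 fold changes were -0.06 ± 0.10 (95% interval -0.28 to 0.15) and -0.08 ± 0.10 (-0.29 to 0.13), with edgeR adjusted p-values of 0.852 and 0.90.

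DNAJB9 encodes ERdj4, a J-domain cochaperone of BiP that is a well-known target of spliced XBP1. The control libraries had 28.3, 34.3 and 30.8 CPM, those at 50 nM 25.1, 25.6 and 24.03 CPM, and those at 250 nM 26.5, 25.0 and 28.3 CPM. The 50 nM libraries lay below every control library. The highest 250 nM library lay only 0.011 CPM below the lowest control. At 50 nM the gene fell by 19.96% (log2 fold change -0.32 ± 0.08, 95% interval -0.49 to -0.15, edgeR adjusted p = 0.0405). This call held without control replicate 1 (edgeR adjusted p = 0.0233) and was lost without any other of the 6 libraries. Without control replicate 2 the change was -0.25 (edgeR adjusted p = 0.137), and without control replicate 3 it was -0.33 (0.118). Without 50 nM replicates 1, 2 and 3 it was -0.33, -0.34 and -0.30 (edgeR adjusted p of 0.111, 0.0892 and 0.0771). With all libraries kept, 3 of 12 alternative settings lost the call. Among them were limma-voom and the fit of only the 2 groups compared. At 250 nM DNAJB9 had a log2 fold change of -0.23 ± 0.08 and did not pass (edgeR adjusted p = 0.377).

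HERPUD1, an ER membrane protein that assembles the retrotranslocation complex for misfolded proteins, also passed at 50 nM. It had 113, 118 and 114 CPM in the control, 94.3, 100.5 and 95.6 CPM at 50 nM, and 103.5, 97.2 and 104.9 CPM at 250 nM. The controls were tightly grouped and lay at least 8.44 CPM above every treated library. HERPUD1 fell by 15.8% at 50 nM (log2 fold change -0.25 ± 0.06, 95% interval -0.37 to -0.13, edgeR adjusted p = 0.0218). The call was lost without control replicate 2 (-0.23, edgeR adjusted p = 0.0633), control replicate 3 (-0.26, 0.0773) or 50 nM replicate 1 (-0.23, 0.102). At 250 nM the value was -0.17 ± 0.06 (edgeR adjusted p = 0.312), which did not pass.

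EDEM1, the other degradation gene of the set, gave no such difference. It had 371, 351 and 373 CPM in the control, 344, 335 and 378 CPM at 50 nM, and 371, 354 and 334 CPM at 250 nM. The highest value and the lowest both came from treated libraries, and the groups overlapped. The log2 fold changes were -0.05 ± 0.06 at each concentration (95% intervals -0.18 to 0.08), with edgeR adjusted p-values of 0.769 and 0.902.

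DDIT3 encodes CHOP, the transcription factor that PERK signalling induces through ATF4. Its control libraries had 14.8, 11.5 and 14.5 CPM, those at 50 nM 18.2, 17.0 and 17.4 CPM, and those at 250 nM 17.5, 15.8 and 18.4 CPM. All 6 treated libraries lay above all 3 controls. The log2 fold change was 0.36 ± 0.10 at 50 nM (95% interval 0.15 to 0.57, edgeR adjusted p = 0.061) and 0.34 ± 0.10 at 250 nM (0.13 to 0.55, edgeR adjusted p = 0.238), so neither passed. DESeq2 called the difference at 50 nM (0.37, DESeq2 adjusted p = 0.018), as did edgeR without a filter on low counts (adjusted p = 0.0435) and with the replicate number as a block (adjusted p = 0.0263). Without control replicate 2, the lowest library, the estimate dropped to 0.26 (edgeR adjusted p = 0.179). The 180 to 330 fragments behind each value carry a counting error of up to 7.45%.

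**Figure D2:**
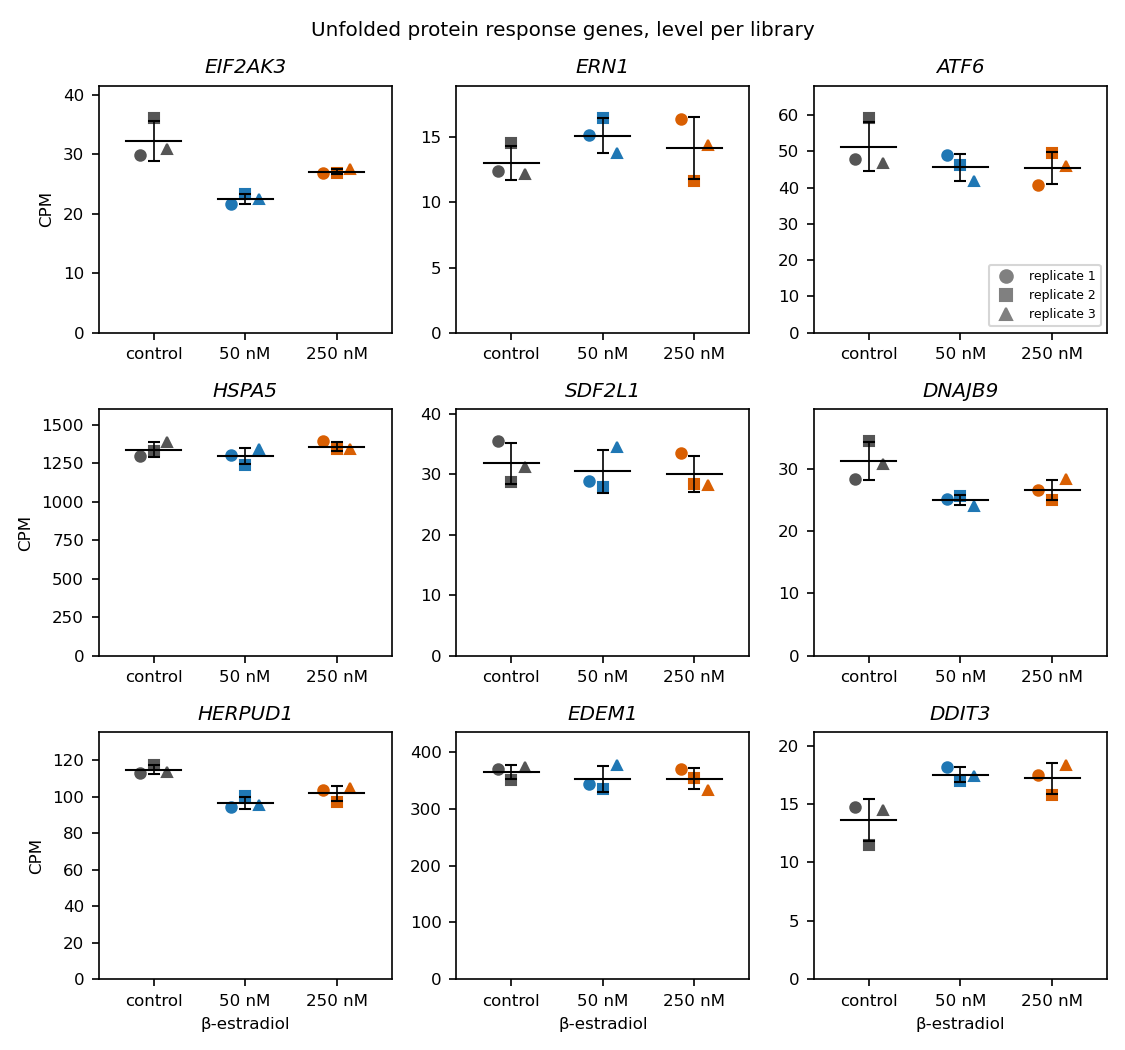
Level of each gene in CPM (vertical axes start at 0) in the control, 50 nM and 250 nM libraries, with marker shapes for replicates 1 to 3 and bars for the mean ± SD of 3 libraries. EIF2AK3, DNAJB9 and HERPUD1 lie below the controls in every 50 nM library and DDIT3 above them, while HSPA5 ranges only from 1238 to 1391 CPM.

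At 50 nM, then, 3 of the 9 genes passed, each of them lower (threshold of 0.05 on the edgeR p-value adjusted over all genes tested). Over all 12324 genes 3.25% passed, 1.55% as higher and 1.7% as lower. The count was 4 with DESeq2, which added DDIT3 as higher, and 2 with limma-voom, which left out DNAJB9. The 3.25% is the share by edgeR. DESeq2 passed more of all genes (counts in the last section), and the share by limma-voom is not given here. It was 1, EIF2AK3, when only the control and 50 nM libraries were fitted. It was also 1 without control replicate 2, without control replicate 3 or without 50 nM replicate 1. Control and 50 nM libraries did not overlap for 4 of the 9, 3 lower and 1 higher, against 19% of all genes tested (10.1% lower and 8.88% higher). The median log2 fold change was -0.06 over the 9 genes and 0.00 over all genes.

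At 250 nM, 0 of the 9 passed by edgeR, DESeq2 or limma-voom, where 0.308% of all genes passed by edgeR (0.203% higher and 0.105% lower). An unadjusted edgeR p under 0.05 was found for 4, EIF2AK3, DNAJB9, HERPUD1 and DDIT3, and for 8.67% of all genes. For the same 4 the control and 250 nM libraries did not overlap, 3 lower and 1 higher, against 15.5% of all genes (7.76% lower and 7.75% higher). Their estimates had the sign seen at 50 nM, but both comparisons use the same 3 control libraries. Of those controls, replicate 2 held the highest of all 9 values for EIF2AK3, ATF6, DNAJB9 and HERPUD1 and the lowest for DDIT3. Without it the 250 nM estimates became -0.16 for EIF2AK3, -0.15 for DNAJB9, -0.16 for HERPUD1 and 0.23 for DDIT3.

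The direct comparison of 250 nM with 50 nM does not set its estimates against the control levels. The control libraries still enter the scaling, the filter and the shared spread behind its errors and p-values. None of the 9 genes passed in this comparison by edgeR, DESeq2 or limma-voom. By edgeR 0.325% of all genes passed (0.187% higher and 0.138% lower). EIF2AK3 alone of the 9 had an unadjusted p under 0.05, as did 5.68% of all genes: it was higher at 250 nM in each library, with a log2 fold change of 0.27 ± 0.08 (95% interval 0.10 to 0.44, edgeR adjusted p = 0.323). DNAJB9 differed by 0.09 ± 0.08 (-0.08 to 0.27), HERPUD1 by 0.07 ± 0.06 (-0.04 to 0.19) and DDIT3 by -0.02 ± 0.10 (-0.23 to 0.18). The 2 groups were separated for EIF2AK3 and, by 0.022 CPM, for HSPA5, both higher at 250 nM, against 11.5% of all genes (5.94% higher and 5.57% lower). In the F test over all 3 groups, EIF2AK3 passed (edgeR adjusted p = 0.0051), where 1.86% of all genes did. HERPUD1 had an adjusted p of 0.0578 in that edgeR test, DNAJB9 0.0994 and DDIT3 0.108.

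**Figure D3:**
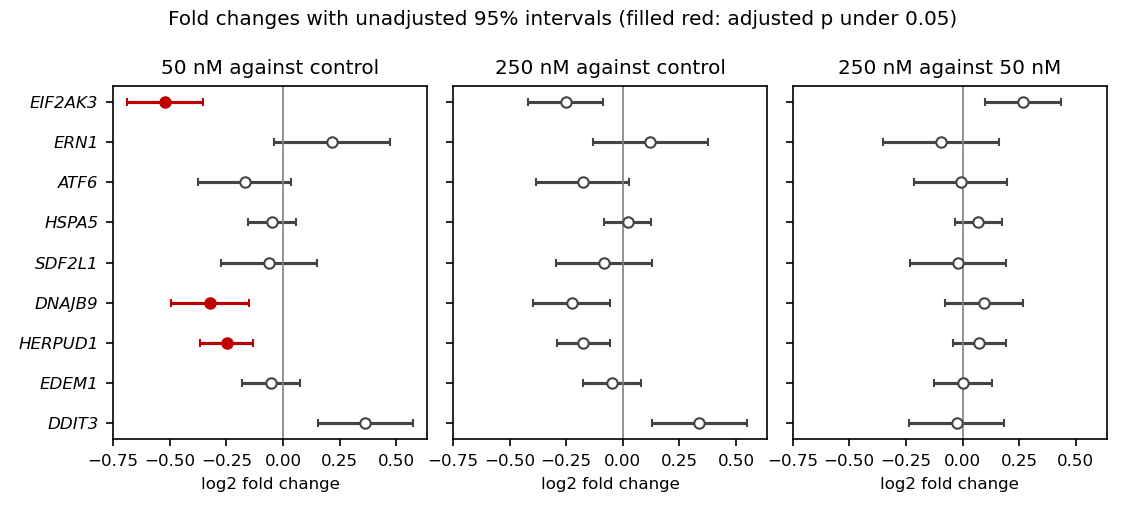
Log2 fold change of each gene (points) with its 95% interval, not adjusted for the number of genes (bars), in the 3 comparisons. Filled red points mark the 3 genes that passed, EIF2AK3, DNAJB9 and HERPUD1 at 50 nM; the HSPA5 intervals are the narrowest and include 0 in each comparison.

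The plot of levels relative to the control shows how the 4 separated genes differed among themselves. At 50 nM the EIF2AK3 libraries stood at 66.8% to 72.4% of the control mean, those of DNAJB9 at 77.2% to 82.2% and those of HERPUD1 at 82.0% to 87.4%. DDIT3 stood at 125% to 134%. At 250 nM the ranges were 83.0% to 85.6% for EIF2AK3, 80.4% to 90.8% for DNAJB9, 84.5% to 91.2% for HERPUD1 and 116% to 135% for DDIT3. EIF2AK3 was therefore furthest from the control at 50 nM and no longer apart from DNAJB9 and HERPUD1 at 250 nM. Whether these genes differ from each other in their response was not tested.

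**Figure D4:**
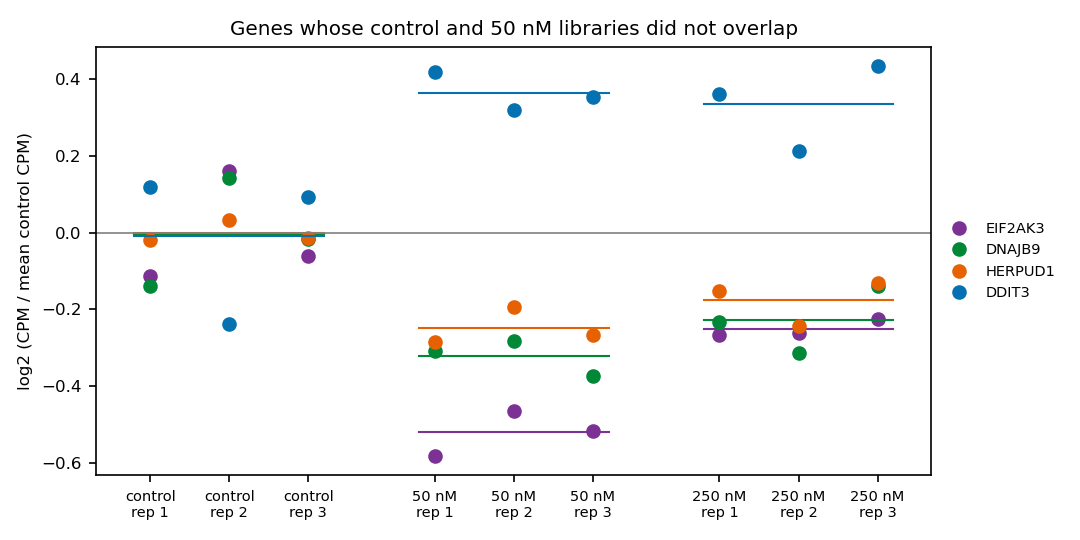
Log2 ratio of each library's CPM to the control mean, for the 4 genes whose control and 50 nM libraries did not overlap; lines mark the mean of each group of 3. In control replicate 2 EIF2AK3, DNAJB9 and HERPUD1 lie above 0 and DDIT3 below, and in the treated libraries the order is turned around.

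Across the 9 libraries, log2 levels of EIF2AK3, DNAJB9 and HERPUD1 moved together, with Pearson's r of 0.92 for EIF2AK3 with either gene and 0.93 for DNAJB9 with HERPUD1. DDIT3 ran against them (r of -0.85, -0.81 and -0.78), while HSPA5 had r of 0.35 with EIF2AK3. These describe 9 libraries that fall into 3 treatment groups. EIF2AK3, DNAJB9, HERPUD1 and DDIT3 are the members whose control and 50 nM libraries did not overlap. Their r values therefore partly restate those group differences. Control replicate 2 held the highest EIF2AK3, DNAJB9 and HERPUD1 values and the lowest DDIT3 value. Correlations between members within groups were not computed. EDEM1 had r of 0.87 with SDF2L1 and 0.55 with HSPA5.

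Among 7594 genes with a symbol and a mean of at least 5 CPM, the closest to EIF2AK3 over the same 9 libraries were SLC35C1, the Golgi GDP-fucose transporter (r = 0.98), the chromatin protein gene ARID4A (0.97) and the nucleolar protein gene ESF1 (0.97). ARID4A fell at 50 nM by 0.55 ± 0.07 on the log2 scale (edgeR adjusted p = 0.00059). For DNAJB9 the closest were RPF2, a ribosome assembly factor (0.98), the innate immune kinase gene TBK1 (0.96) and MBTPS2 (0.95). MBTPS2 encodes the site-2 protease that cleaves ATF6, and its own value at 50 nM, -0.16 ± 0.08, did not pass (edgeR adjusted p = 0.327). HERPUD1 was closest to ZNF862 (0.98), CCNG2, which encodes cyclin G2 (0.95), and the cell cycle inhibitor gene CDKN1B (0.95). With so few libraries and so many genes, values of this size are a description only.

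The wider ER machinery was read from 5 further lists with 181 symbols, some of them alternative names of the same gene. Of these, 136 were tested, and genes not matched by symbol are not covered. At 50 nM 1 of the 136 passed, where 3.25% of all genes did, and 17 had an unadjusted edgeR p under 0.05, where 15.6% of all genes did. Of the 136, 129 had a log2 fold change between -0.25 and 0.25, and the median was 0.00. The one that passed was DDIT4. At 250 nM, and between the concentrations, 0 of 136 passed by edgeR (0.308% and 0.325% of all genes), with 9 and 5 at an unadjusted p under 0.05 (8.67% and 5.68% of all genes). DESeq2 called 5 of them at 50 nM (DDIT4, ATF3, ATF6B and VLDLR higher and SESN2 lower), 2 at 250 nM (ATF3 higher and SESN2 lower) and 1 between the concentrations (DDIT4). The count with limma-voom was 1, 0 and 0. The shares of all genes above are those of edgeR, and DESeq2 passed more of all genes in each comparison (last section).

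Among the ER chaperone symbols sought, CALR, P4HB and DNAJB11 were not matched. Of 22 ER chaperones and folding enzymes tested, 0 passed in any comparison by edgeR, DESeq2 or limma-voom. At an unadjusted edgeR p under 0.05 there were 1 at 50 nM (15.6% of all genes) and 0 at 250 nM (8.67%). Median log2 fold changes were 0.01 at both concentrations. HSP90B1, the Hsp90 of the ER, had 1361 CPM at 50 nM and 1360 CPM in the control (log2 fold change 0.00 ± 0.05, 95% interval -0.10 to 0.10). The disulfide isomerase gene PDIA4 gave 0.02 ± 0.05 (-0.08 to 0.12). By the naming rule, the lowest p belonged to MANF, a secreted ER stress protein (-0.19 ± 0.07, edgeR adjusted p = 0.215), and to DNAJC3, a BiP cochaperone that inhibits PERK (-0.07 ± 0.07, edgeR adjusted p = 0.686). HSP90B1 and PDIA4 were picked for their roles after the values were seen.

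ER-associated degradation genes other than HERPUD1 and EDEM1 likewise gave 0 calls among 27, by all 3 tools and in each comparison. At an unadjusted edgeR p under 0.05 there were 1 at 50 nM, 0 at 250 nM and 1 between the concentrations. Over all genes the shares were 15.6%, 8.67% and 5.68%. The ubiquitin-conjugating enzyme gene UBE2J1 had the value -0.21 ± 0.07 at 50 nM (edgeR adjusted p = 0.134). MARCH6, an ER ubiquitin ligase gene, had -0.13 ± 0.07 at 50 nM (edgeR adjusted p = 0.379) and 0.07 ± 0.07 at 250 nM (0.847). Its value at 250 nM against 50 nM was 0.20 ± 0.07 without overlap of the libraries (edgeR adjusted p = 0.477). SEL1L and SYVN1, the core of the ligase complex that works with HERPUD1, gave -0.05 ± 0.07 and 0.04 ± 0.08 (edgeR adjusted p of 0.809 and 0.87); these 2 were chosen for their roles with values known. The paralogue HERPUD2 stood at 0.02 (edgeR adjusted p = 0.968). The 27 translocation and export genes had 0 calls by the same tools. Those at an unadjusted edgeR p under 0.05 numbered 2, 2 and 1 in the same order, beside the same shares of all genes. SEC61A2, of the translocon, had 0.03 at 50 nM and 0.26 at 250 nM, and the coat gene SEC24B -0.17 and -0.08.

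Among 35 genes of the eIF2α kinases and the ATF4 pathway, DDIT4 rose at 50 nM and 0 fell by edgeR. The median at 50 nM was -0.04. ATF4 itself and the phosphatase genes sought, PPP1R15A and PPP1R15B, were not matched by symbol. An unadjusted edgeR p under 0.05 was found for 8 of the 35 at 50 nM, 4 at 250 nM and 2 between the concentrations. Over all genes the shares were 15.6%, 8.67% and 5.68%. DDIT4 encodes REDD1, a stress-induced inhibitor of mTORC1. Its libraries had 13.9, 16.0 and 13.2 CPM in the control, 20.1, 18.7 and 23.8 CPM at 50 nM, and 14.9, 16.7 and 12.9 CPM at 250 nM. The 50 nM libraries stood above all others, and the 250 nM libraries overlapped the controls. DDIT4 rose by 0.54 ± 0.11 on the log2 scale at 50 nM (95% interval 0.30 to 0.78, edgeR adjusted p = 0.016), a call lost without control replicate 1 (0.51, adjusted p = 0.0517) or 3 (0.48, adjusted p = 0.0956). It was also lost with limma on log2(FPKM + 0.1) (0.48, limma adjusted p = 0.0514) and on unfiltered log2(FPKM + 1) (0.44, limma adjusted p = 0.111). In these runs the median log2 fold change of all genes at 50 nM was -0.056 and -0.024. At 250 nM the value of DDIT4 was 0.04 ± 0.11 (edgeR adjusted p = 0.968). Between the concentrations it was -0.49 ± 0.11 (edgeR adjusted p = 0.114, DESeq2 adjusted p = 0.0111).

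Other targets of ATF4 and CHOP, named here for their roles with their values known, had estimates of both signs at 50 nM. ATF3 gave 0.22 ± 0.07 (edgeR adjusted p = 0.089) and the pseudokinase gene TRIB3, a CHOP target, 0.16 ± 0.12 (0.615). SESN2, which encodes the leucine sensor sestrin 2, gave -0.29 ± 0.08 (edgeR adjusted p = 0.0525). CHAC1, which degrades glutathione, gave -0.63 ± 0.21 (edgeR adjusted p = 0.136) at only 1.53 CPM against 2.37 CPM. None of these 4 passed by edgeR. Of the other eIF2α kinases, PKR (EIF2AK2) had -0.36 ± 0.13 (edgeR adjusted p = 0.182), HRI (EIF2AK1) 0.02 and GCN2 (EIF2AK4) -0.10, with edgeR adjusted p-values of 0.91 and 0.577.

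Among 25 regulators of the response and related ER-membrane transcription factors, 0 passed by edgeR or limma-voom. At an unadjusted edgeR p under 0.05 there were 5 at 50 nM, 3 at 250 nM and 1 between the concentrations. Over all genes the shares were 15.6%, 8.67% and 5.68%. ATF6B, the paralogue of ATF6, gave 0.26 ± 0.08 at 50 nM (edgeR adjusted p = 0.0876), which DESeq2 called. NFYB, a subunit of the CCAAT-binding factor that acts with ATF6 on promoters, gave -0.22 (edgeR adjusted p = 0.145).

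**Figure D5:**
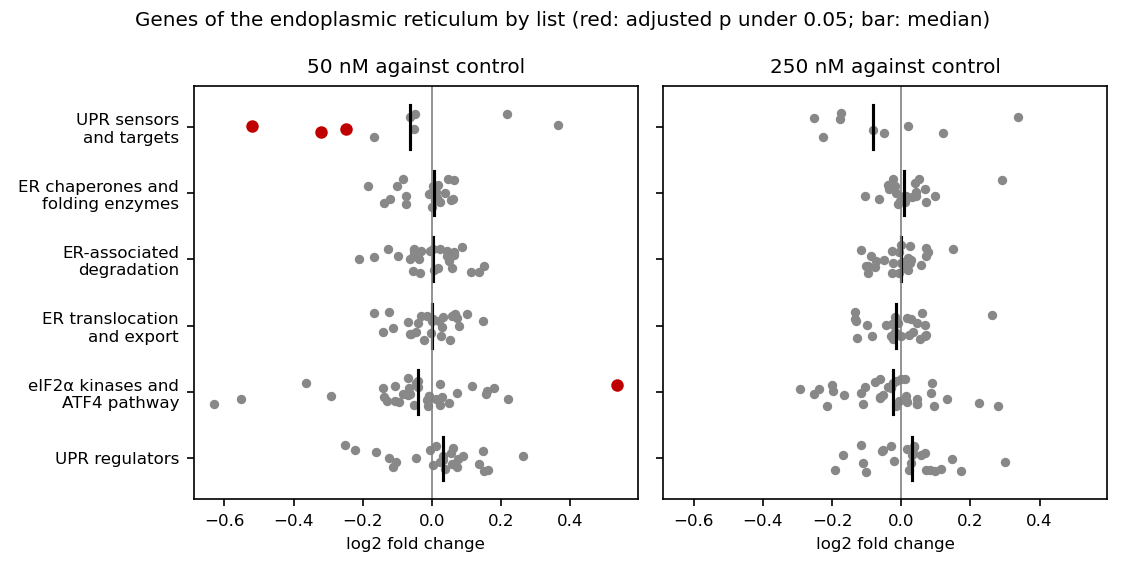
Log2 fold changes at 50 nM and 250 nM against the control for the 9 genes (top row) and the 5 further lists, each point 1 gene, with red for an edgeR adjusted p under 0.05 and a black bar for the list's median. Red points are EIF2AK3, DNAJB9 and HERPUD1 in the top row and DDIT4 in the eIF2α and ATF4 row at 50 nM, and there are 0 at 250 nM.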

How the data were processed

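mRNA levels were measured in 9 libraries, grouped by sample title. The authors' deposited values are, per gene and library, estimated counts and FPKM. Trim Galore, TopHat2 2.1.1, Cufflinks and Cuffdiff were used, per the submitters' processing notes; build, annotation and strand use: not given in the sources used here, so overlapping genes could share counts. Low counts pile up at 4 and its multiples, so about 4 units were read as 1 fragment. Counts were whole and were not rounded.

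edgeR 4.0.16 (R 4.3.3, limma 3.58.1) was fitted to all genes and 9 libraries: filterByExpr (minimum count 10), TMM factors, quasi-likelihood test, Benjamini-Hochberg adjustment over 12324 genes, threshold 0.05. The code was checked on data simulated from the fit's own means and spread. How often it recovers changes as small as those of the members is not given here. Standard errors come from the F statistic. Correlations used log2 CPM with a prior count of 2.

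The genes and lists were chosen with earlier results of these data known. Named were all members; per further list, up to 6 genes that passed, or else the 2 of lowest F-test p; and the 3 genes closest to EIF2AK3, DNAJB9 and HERPUD1. Genes outside this rule are marked. Alternatives were DESeq2 1.42.0, limma-voom, other factors, filters and scales, limma on log2(FPKM + 1) and log2(FPKM + 0.1), only the 2 groups compared, a replicate block and leaving out each library.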

Additional observations from a re-analysis of the deposited data

How the results depend on the processing

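The count of 3 members at 50 nM became 1 with only the 2 groups compared, and leaving out a library gave 1 to 3. At 250 nM against the control, and against 50 nM, 0 members passed in each alternative run. In the F test 1 member passed, 4 with DESeq2, and 2 with no filter, with at least 5 CPM in 3 libraries, with counts divided by 4, with limma on log2(FPKM + 1) or log2(FPKM + 0.1), and with the replicate block. The main F test passed 1.86% of all genes. That share was not counted for the other runs, so their member counts stand without a background. Same-numbered libraries did not deviate together (correlations of -0.03 to 0.04), so the number was not taken as a pairing. With the replicate block 4 members passed at 50 nM, the added one being DDIT3 (log2 fold change 0.37), and 492 of all genes.

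Over all genes, 401 passed at 50 nM: 699 with DESeq2, 244 with only the 2 groups compared, 234 with limma on log2(FPKM + 1) without a filter, and 187 (without control replicate 3) to 564 (without 50 nM replicate 3) with a library left out. At 250 nM 38 passed: 139 with DESeq2, 14 and 15 with limma on log2(FPKM + 1) and log2(FPKM + 0.1), 4 without the filter, and 5 to 25 with a library left out. Between the concentrations 40 passed: 98 with DESeq2, 11 with unfiltered limma, and 21 to 50 with a library left out.

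Log2 fold changes that changed sign were all near 0 and had not passed. With limma on log2(FPKM + 1), filtered or not, and on log2(FPKM + 0.1), ATF6 between the concentrations became 0.0023 and HSPA5 at 250 nM became -0.0185, -0.0185 and -0.0186. In these runs the median of all genes at 250 nM was -0.040, -0.020 and -0.044. Between the concentrations it was 0.010, 0.0040 and 0.011. With a library left out, values between the concentrations ran from -0.214 to 0.0260 for ERN1, -0.0765 to 0.0642 for ATF6, -0.106 to 0.0812 for SDF2L1, -0.0350 to 0.0578 for EDEM1 and -0.0755 to 0.0338 for DDIT3. Those at 250 nM ran from -0.00208 to 0.0486 for HSPA5, -0.168 to 0.00260 for SDF2L1 and -0.0466 to 0.135 for DDIT4, and those at 50 nM from -0.163 to 0.0218 for SDF2L1. Among the 9 members, counting error is largest for ERN1 and DDIT3; CHAC1 and EIF2AK2 had lower CPM than either.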
